A study of Arvicanthis niloticus with 5 samples.

Results

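Pigment genes were measured in RNA of the eye of the Nile rat, Arvicanthis niloticus, a day-active African rodent. The set holds 10 genes of melanin synthesis and of the melanosome: Tyr, Tyrp1, Dct, Pmel, Mlana, Oca2, Slc45a2, Gpr143, Mitf and Mc1r. A gene entered when a transcript carried its symbol, in any letter case, as its mouse, rat or human ortholog. This held for 9 of the 10 genes, against 13982 named genes in the whole table. Mc1r was carried by no transcript and was not analysed here.

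The labels list 5 eye samples, numbered 1, 3, 5, 7 and 9, of wild-type rats of 1 group. No treatment, age or time of day is given, and the labels' protocol states that the library was pooled from 5 animals. The deposited table has 1 column of values, over 64967222 mapped fragments. How this column relates to the 5 listed samples is not stated by any source used here, and it is treated as 1 pool. Therefore no value below has a replicate error and no test between animals was possible. Levels are in FPKM (the fragment count divided by transcript length in kilobases and by the mapped fragments in units of 1000000), and brackets give 95% intervals for counting error alone. With 1 pool, genes that vary together with a pigment gene could not be sought. In bulk RNA, few cells of a type and little RNA per cell cannot be told apart.

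Melanin is made inside melanosomes, organelles related to lysosomes. In the eye they lie in the retinal pigment epithelium, in the pigmented epithelia of ciliary body and iris, and in melanocytes of the choroid and iris stroma. The pigmented epithelia arise from the optic cup and the melanocytes from the neural crest. Tyrosinase (Tyr) performs the first and rate-limiting oxidation of tyrosine. Dct (dopachrome tautomerase) and Tyrp1, its relatives, act on later intermediates of the eumelanin branch. Pmel forms the fibrils on which melanin is laid down, and transporters such as Oca2 and Slc45a2 set the conditions inside the organelle. Mitf, a basic helix-loop-helix factor, drives many of these genes.

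As a check of the tissue label, genes of the eye were taken, with their values known. Gnat1 and Prph2 of photoreceptors were at 344 and 328 FPKM, Bfsp1 and Lim2 of the lens at 931 and 253 FPKM, and Kera and Krt12 of the cornea at 55.1 and 91.0 FPKM. All 6 were among the upper levels of the table, whose named genes had a median of 6.50 FPKM. Because of that choice this is a description and does not test the label.

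The 9 measured pigment genes covered a wide range of levels. Tyrp1, Mlana, Pmel and Dct lay between 37.7 and 152 FPKM and held 88.4% of the FPKM of the set. Tyr, Slc45a2, Oca2 and Gpr143 lay between 8.14 and 11.1 FPKM, and Mitf was at 1.75 FPKM. The widest steps in this order were 4.65-fold [4.23 to 5.12] between Gpr143 and Mitf and 3.39-fold [3.21 to 3.58] between Dct and Tyr. From Tyrp1 to Mitf the span was 86.9-fold [80.2 to 94.1].

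**Figure D1:**
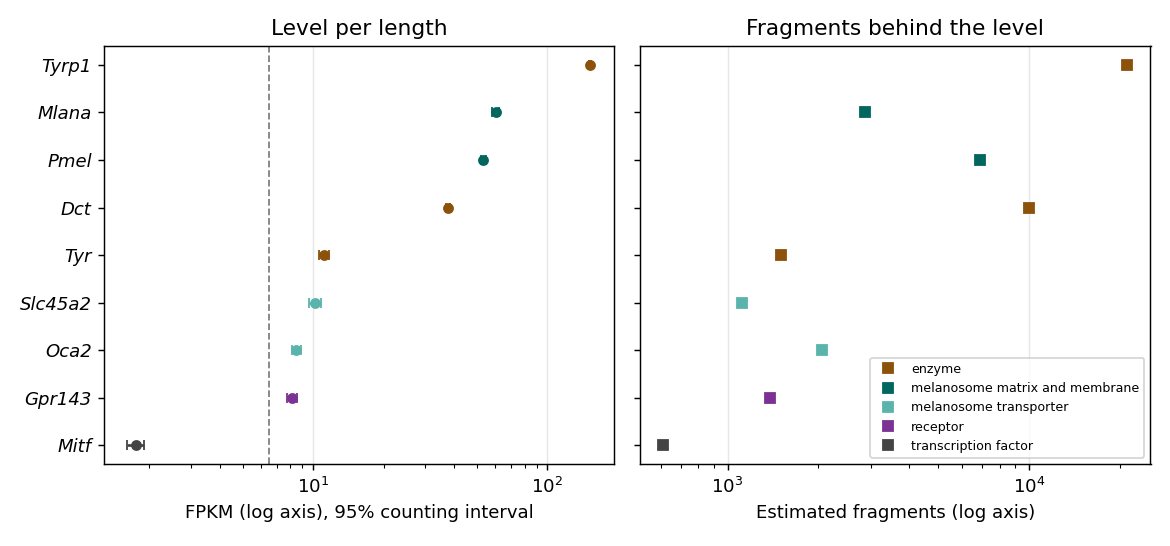
Levels in FPKM with 95% counting intervals (left, log axis) and estimated fragments (right, log axis) of the 9 measured pigment genes, 1 gene per line, coloured by role; the dashed line is the median of all named genes, 6.50 FPKM. Tyrp1 leads on both axes, whereas Mlana is above Pmel and Dct per length and below both by fragments.

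The enzymes held 58.6% of the summed FPKM of the set, at 200.7 FPKM [198 to 203]. Tyrp1, whose product in the mouse oxidizes the carboxylated indole intermediate, stood at 152 FPKM [150 to 154]. It rested on 21217 fragments over a transcript of 2149 nt and ranked 172 among the 13982 named genes. Dct stood at 37.7 FPKM [36.9 to 38.4], from 10012 fragments over 4093 nt, and ranked 1212. Tyr stood at 11.1 FPKM [10.6 to 11.7], from 1504 fragments over 2083 nt, and ranked 4304. The gene for the rate-limiting step thus had the lowest mRNA level of the enzyme family. Tyrp1 exceeded Tyr 13.7-fold [13.0 to 14.4] and Dct exceeded Tyr 3.39-fold, which are log2 ratios of 3.77 [3.70 to 3.85] and 1.76 [1.68 to 1.84]. Tyrp1 exceeded Dct 4.04-fold [3.94 to 4.13], a log2 ratio of 2.01. The transcripts of Tyrp1 and Tyr were of nearly the same length, so their ratio owes little to the division by length. The Dct transcript, at 4093 nt, was longer than both, so the 2 ratios with Dct depend on that division.

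The genes of the melanosome matrix and membrane came next, with 33.1% of the FPKM of the set. Mlana, a small melanosomal membrane protein that binds Pmel, stood at 60.2 FPKM [58.0 to 62.4]. Pmel stood at 53.3 FPKM [52.1 to 54.6]. Per length, Mlana exceeded Pmel 1.13-fold [1.08 to 1.18]. In fragments the order was the other way round, with 2851 for Mlana and 6869 for Pmel, since the Mlana transcript had 729 nt and the Pmel transcript 1983 nt. Compared with the enzyme Tyr, Mlana was 5.42-fold [5.09 to 5.77] and Pmel 4.80-fold [4.54 to 5.07] higher.

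The transporter genes were close to Tyr. Slc45a2, a membrane transporter of the melanosome, stood at 10.2 FPKM [9.60 to 10.8], from 1120 fragments over 1692 nt. Oca2, linked to the chloride conductance that raises melanosomal pH, stood at 8.47 FPKM [8.10 to 8.84], from 2066 fragments over 3756 nt. Slc45a2 was 1.20-fold [1.12 to 1.29] above Oca2. Loss of either gene causes oculocutaneous albinism in people, as does loss of Tyr or Tyrp1. Tyr exceeded Slc45a2 only 1.09-fold, and the interval of 1.01 to 1.18 barely left out equality.

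Of the 2 receptors, Gpr143 was measured. This receptor sits on the melanosome membrane and is known from X-linked ocular albinism, in which melanosomes of the pigment epithelium grow too large. It stood at 8.14 FPKM [7.71 to 8.58], from 1383 fragments over 2616 nt. Oca2 and Gpr143 were the only neighbours in the order of the 9 levels whose ratio had an interval that included equality, 1.04-fold [0.972 to 1.11]. Mc1r, the melanocortin receptor that steers melanocytes of skin and hair toward eumelanin, had no transcript of its symbol, which gives no limit on its level. Of its flanking genes, Tubb3 was at 32.4 FPKM.

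Mitf had the lowest level of the set, 1.75 FPKM [1.61 to 1.89], from 613 fragments over a transcript of 5395 nt. Of all named genes, 14.2% lay below it. Mitf is transcribed from several promoters, among them one used in melanocytes and others used in pigment epithelium. The Nile rat RefSeq annotation (assembly mArvNil1.pat.X) lists 10 mRNA models for it, 4 for Oca2, 2 for Tyrp1 and 1 for each of the other members. In the table a single transcript stood for Mitf, so its isoforms could not be told apart.

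Set against all named genes, 9 of 9 measured pigment genes reached 1 FPKM, where 93.2% of named genes did so. At 10 FPKM the count was 6 of 9, against a background of 34.0%, and at 100 FPKM it was 1 of 9, Tyrp1, against 2.21%. The median of the set was 11.1 FPKM, the level of Tyr, beside 6.50 FPKM over all named genes. Of the 9 members, 8 lay above that median of all genes, as 50.0% of named genes do by construction, and Mitf lay below it. The members are known pigment genes and were picked for this tissue, so these counts are a description. Together they held 0.139% [0.138 to 0.141] of the FPKM of named genes and 0.0250% of the FPKM of all transcripts. Their estimated fragments were 0.0733% of the stated total of mapped fragments. Transcripts without a symbol carried 52.8% of the estimated fragments summed over all transcripts, a sum that differs from the stated total.

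**Figure D2:**
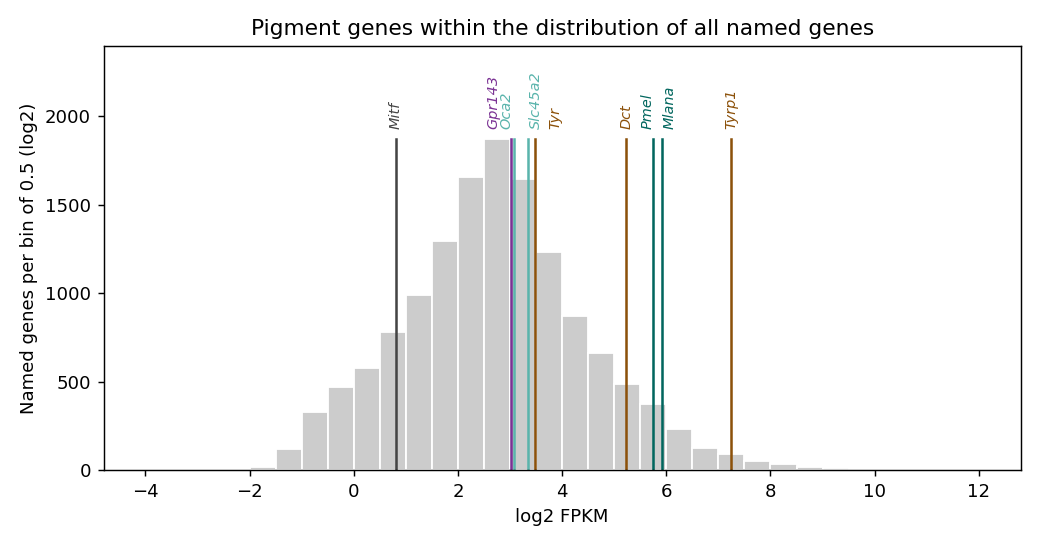
Number of named genes per bin of 0.5 on the log2 FPKM scale (grey bars), with a vertical line at the level of each measured pigment gene, coloured by role as enzyme (brown), matrix and membrane (dark green), transporter (light green), receptor (purple) or transcription factor (dark grey). Tyrp1, Mlana, Pmel and Dct lie in the right tail, the transporters, Gpr143 and Tyr just right of the peak, and Mitf on the left flank.

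The members had in common that each was carried by 1 transcript, which also held for 90.1% of named genes. No other transcript shared an ortholog identifier with any of them. These identifiers name single transcripts, so a piece matched to another isoform of the same gene would not be found in this way. A separate ortholog table of Ensembl identifiers held all 9 transcripts, 8 of them with an entry in each of 3 species columns, while Mitf lacked 1. The symbol came from mouse and human for Tyr, Tyrp1 and Slc45a2, from mouse for Dct, Pmel, Mlana and Gpr143, and from human for Oca2 and Mitf. With a tolerance of 1e-05 fragments, the fragment count was fractional for 5 of the 9 (Tyrp1, Dct, Slc45a2, Oca2 and Mitf), so part of their fragments was divided with other transcripts, as for 44.0% of named transcripts. The counts of Tyr, Pmel, Mlana and Gpr143 were whole.

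Pigment genes were also set beside the genes next to them in the genome, by their order among protein-coding genes in the RefSeq assembly. Of 20 flanking genes, 11 carried a symbol in the table, and 10 of these flanked a measured pigment gene. The pigment gene was higher in 10 of these 10 pairs, which covered 8 of the 9 genes. Mitf, the lowest member, had no measured flanking gene. The 8 genes lay above 58.6% to 98.8% of all named genes, and the median of the 11 flanking genes was 5.62 FPKM, so a higher pigment gene in most pairs follows from these levels. Tyrp1 was 17.6-fold above Ptprd, a receptor phosphatase, at 152 and 8.61 FPKM. Dct was 16.4-fold above Gpc6, a glypican, at 37.7 and 2.29 FPKM, and 9.30-fold above Tgds on its other side, at 4.05 FPKM. Pmel was 9.49-fold above the kinase Cdk2 (5.62 FPKM) and 4.67-fold above Dgka (11.4 FPKM), and Mlana was 6.07-fold above Ermp1 (9.92 FPKM). The gaps were smaller for Tyr, Slc45a2, Gpr143 and Oca2. Tyr exceeded the glutamate receptor Grm5 4.45-fold, at 11.1 and 2.50 FPKM, and Slc45a2 exceeded Amacr 2.91-fold, at 10.2 and 3.51 FPKM. Gpr143 exceeded Shroom2 2.43-fold, at 8.14 and 3.35 FPKM. Oca2 exceeded Herc2 1.46-fold [log2 ratio 0.55, 0.46 to 0.63], at 8.47 and 5.80 FPKM. An intron of HERC2 in people holds an enhancer of OCA2. This comparison was chosen after the levels were seen.

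**Figure D3:**
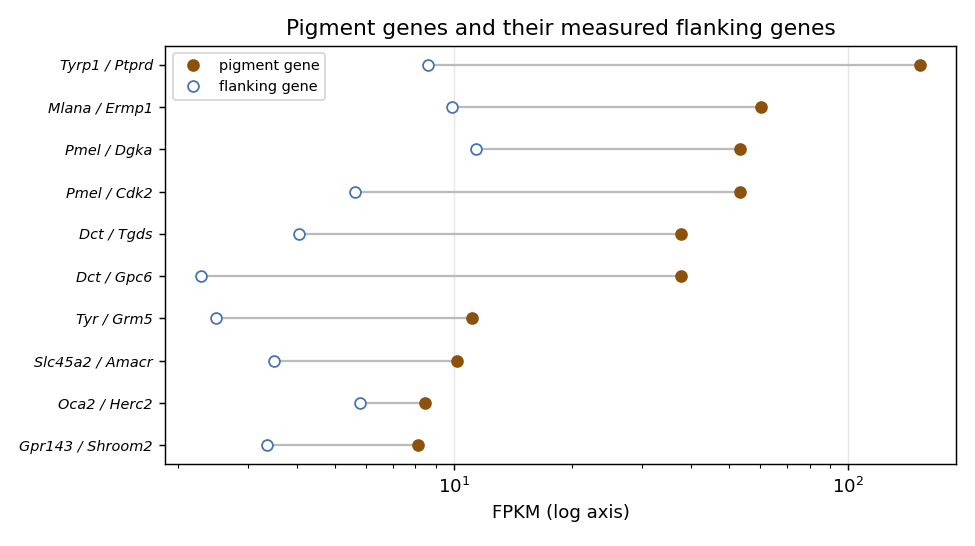
Levels in FPKM (log axis) of pigment genes (filled brown points) and of their measured flanking genes (open blue points), 1 pair per line. The pigment gene lies to the right in all 10 pairs, from 1.46-fold for Oca2 over Herc2 to 17.6-fold for Tyrp1 over Ptprd.

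Further genes of melanosome function are given by list. The counts of every list are a description, beside shares of all named genes of 93.2% at 1 FPKM and 34.0% at 10 FPKM. Of 7 further channels and transporters, 5 were measured, with a median of 3.56 FPKM. Clcn7, a lysosomal chloride and proton exchanger, was highest at 12.3 FPKM over 2 transcripts, followed by the cystine transporter Slc7a11 at 4.65 FPKM, and the copper pump Atp7a, which supplies tyrosinase with its metal, was lowest at 1.09 FPKM. All 5 reached 1 FPKM and 1 reached 10 FPKM. No transcript carried the symbols Slc24a5 or Mfsd12.

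The list of melanosome biogenesis covers the BLOC complexes, the AP-3 adaptor and the genes of Hermansky-Pudlak syndrome, which sort cargo to the organelle. It also holds Rab38, Rab32 and further genes of vesicle traffic, which enter its counts and median. Of its 22 genes, 17 were measured and all 17 reached 1 FPKM, 6 of them 10 FPKM, around a median of 7.60 FPKM. Dtnbp1 (dysbindin) was highest at 57.2 FPKM and Bloc1s3 next at 21.3 FPKM, while Hps6 was lowest at 2.29 FPKM. Under older symbols 4 more genes of this list were found: Snapin at 48.9, Bloc1s5 at 14.9, Bloc1s4 at 9.31 and Bloc1s6 at 6.41 FPKM. Rab38 and Rab32, the small GTPases that carry Tyr and Tyrp1 to the melanosome, were at 10.3 and 4.94 FPKM. Rab38 was thus close to Tyr (11.1 FPKM) and far below Tyrp1.

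For melanosome transport, all 8 genes were measured and reached 1 FPKM, with a median of 7.23 FPKM. Rab1a and Kif5b, which serve traffic in most cells, were highest at 69.0 and 37.4 FPKM. Rab27a, which tethers melanosomes to their motors, was lowest at 2.25 FPKM. Its melanocyte partners Mlph and Myo5a were at 5.65 and 4.45 FPKM. Its pigment epithelium partners Myrip and Myo7a were at 8.81 and 3.02 FPKM. Neither pair was uniformly the higher one.

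The list named for proteins that melanosomes share with lysosomes and related organelles had the highest median of the pathway lists. It also holds Mif and Gsta4, whose products are not membrane proteins of these organelles. Of 8 genes, 6 were measured, and these 6 reached 10 FPKM. Their median was 75.7 FPKM. A further gene of the list, Cyb561a3, was found under an older symbol at 8.39 FPKM. Mif, whose product has a dopachrome tautomerase activity, was at 110 FPKM over 2 transcripts, Gsta4 was at 106 FPKM, and Lamp2 was lowest at 21.2 FPKM. Gpnmb, the closest relative of Pmel, was at 64.5 FPKM, and Pmel stood at 0.827-fold [0.802 to 0.853] of it. These genes are active in many cell types of the eye besides pigment cells.

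Regulators of pigment cells spanned a wide range. Of 12 regulators, 10 were measured, 9 reached 1 FPKM and 5 reached 10 FPKM, with a median of 9.73 FPKM. Otx2 and Pax6, which act with Mitf in pigment epithelium and also in retinal neurons, were highest at 115 and 92.3 FPKM. Sox10 and Pax3, which act upstream of Mitf in the neural crest, were at 10.1 and 0.739 FPKM, and Pax3 rested on 38 fragments. Mitf stood at 0.249-fold [0.225 to 0.275] of its relative Tfeb (1.75 and 7.04 FPKM) and at 0.174-fold [0.155 to 0.194] of Sox10. The transcripts of Otx2, Pax3 and Sox10 had 571, 791 and 878 nt, and that of Mitf had 5395 nt. Comparisons among these levels thus depend on the division by length, which the intervals do not cover. Tfe3, another relative of Mitf, was at 8.48 FPKM under an older symbol.

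Genes of melanocortin, endothelin and Kit signalling had a median below that of all named genes. Of 16 genes, 14 were measured, 12 reached 1 FPKM and 5 reached 10 FPKM, with a median of 5.38 FPKM. The ubiquitin ligase Mgrn1 (42.4 FPKM) and the G protein subunit Gnai3 (35.9 FPKM) were highest. The melanocortin precursor Pomc was at 3.81 FPKM, its antagonist Asip (agouti) at 2.0 FPKM, and the receptor Mc4r was lowest at 0.508 FPKM on 11 fragments. The symbols Mc3r and Mc5r were on no transcript.

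Melanosomes of the eye lie in more than one cell type, so the pigment genes were set beside markers of each. Of 12 markers of the retinal pigment epithelium, 11 were measured and 10 reached 1 FPKM, with a summed level of 1174 FPKM and a median of 35.4 FPKM. Rlbp1 was at 432, Rpe65 at 238, Rrh at 172, Rgr at 128, Ttr at 102, Rdh5 at 35.4, Lrat at 26.9, Slc16a8 at 22.8, Stra6 at 8.85, Trpm3 at 7.36 and Mertk at 0.912 FPKM. Rlbp1 and Rgr are also made by Müller glia. Tyrp1 stood at 0.638-fold [0.627 to 0.649] of Rpe65, Dct at 0.158-fold [0.155 to 0.162] and Tyr at 0.0467-fold [0.0443 to 0.0491].

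Of 8 melanocyte lineage markers, 7 were measured and 6 reached 1 FPKM, with a summed level of 51.6 FPKM and a median of 3.61 FPKM. Ednrb was at 18.9 FPKM over 2 transcripts, Gjb6 at 12.7, Sox10 at 10.1, Trpm1 at 3.61, Cdh19 at 2.82, Kit at 2.78 and Pax3 at 0.739 FPKM. Tyrp1, Mlana, Pmel and Dct exceeded every one of these markers, while Tyr, Slc45a2, Oca2, Gpr143 and Mitf lay within their range of 0.739 to 18.9 FPKM. The range of the pigment epithelium markers, 0.912 to 432 FPKM, held all 9 pigment genes and 6 of the 7 melanocyte markers. Its lower end rests on Mertk alone, with 111 fragments, and the next marker was Trpm3 at 7.36 FPKM. Without Mertk it would leave out Mitf and, of the melanocyte markers, also Trpm1, Cdh19 and Kit. The ranges overlap either way and do not separate the sources. Several of the 7 have other sources in the eye: Sox10 and Cdh19 in Schwann cells, Ednrb in glia and vessels, and Trpm1 in bipolar cells of the retina. The Schwann cell list, with 7 of 8 genes measured, ran from Cdh19 at 2.82 FPKM to Mbp at 118 FPKM, which oligodendrocytes of the optic nerve also make. Which cells supplied the pigment gene RNA was not tested.

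The ciliary body and iris carry pigmented epithelia too, and 7 of 8 genes listed as their markers were measured, with a median of 19.5 FPKM. Whether these levels come from ciliary body and iris or from other parts of the eye was not tested. Myoc and Aqp1 were highest at 85.0 and 66.7 FPKM and Zic1 was lowest at 3.79 FPKM. Of 8 markers of eyelid skin and hair, 4 were measured. Krt14, which the corneal and conjunctival epithelium also makes, was at 40.2 FPKM and Krt10 at 4.98 FPKM, while Lor was at 1.64 FPKM and the hair follicle gene Tchh at 0.683 FPKM on 13 fragments. Skin or hair as a source of pigment gene RNA was not tested.

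**Figure D4:**
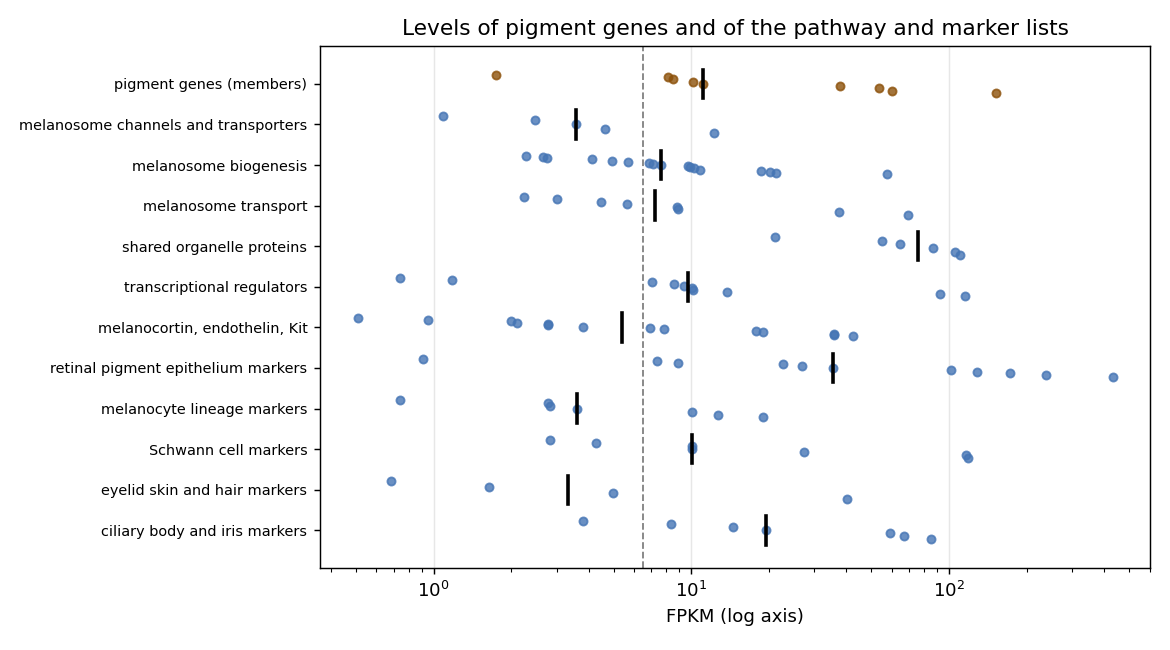
Levels in FPKM (log axis) of the measured genes of the pigment gene set (brown, top line) and of each pathway and marker list (blue), with 1 point per gene, a black bar at the median of each list and a dashed line at 6.50 FPKM, the median of all named genes. The pigment genes span 1.75 to 152 FPKM, and the medians of the melanocyte lineage markers (3.61 FPKM) and of the pigment epithelium markers (35.4 FPKM) both lie within that span.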

How the data were processed

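Per the file headers, the authors' table gives each transcript an FPKM, an estimated fragment count and a length. Per the submitters' processing notes Bowtie was used; its version, the assembly and how fragments were divided are not stated by any source used here. The deposited FPKM equalled the deposited estimated count over full length and the stated total within a relative tolerance of 1e-05. Names are those of the authors' deposited ortholog table, taken from mouse, rat or human.

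A gene's level was the sum over its transcripts. Intervals of 95% (gamma for levels, delta method for ratios) assume Poisson counts and cover counting error only. They omit variation between animals, PCR copies and the division of fragments. Simulated Poisson counts checked their formulas alone and cannot test that assumption for these data. At 64967222 mapped fragments, member levels rest on 613 to 21217 fragments. Members and lists were chosen with earlier results of these data known. The genes named are all members, every pigment epithelium and melanocyte marker, and the 2 highest and the lowest gene of the other lists; Rab38, Rab32, Mlph, Myo5a, Myrip, Myo7a, Gpnmb, Sox10, Tfeb, Pomc, Asip, Krt10, Lor, the genes found under older symbols, the flanking genes and the 6 genes of the tissue check were added with values known. A gene under this rule is not reported here but enters the counts. No sequences and no coordinates are given, since none of the files' build were used here. Values were computed with SciPy 1.17.1 and pandas 2.3.3 under Python 3.11.15, and plotted with Matplotlib 3.10.9.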

Additional observations from a re-analysis of the deposited data

How the results depend on the processing

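With 1 transcript per member, the highest, the longest or the length-weighted mean transcript gave the same member levels by construction. The levels were also the same with transcripts of at least 500 nt and with names on which species did not differ. The summed share of the members, 0.139% of named FPKM, moved with its denominator. It was 0.146% with the highest transcript, 0.151% with the length-weighted mean, 0.152% with the longest transcript, 0.167% with names on which species did not differ, 0.157% with transcripts of at least 500 nt and 0.151% of fragments. The median of the members was 8.11 after rescaling to a sum of 1000000. With a pseudocount of 1 FPKM, the log2 ratio was 3.66 for Tyrp1 over Tyr and 1.67 for Dct over Tyr. Lengths reduced by 200 nt, an alternative chosen after seeing the data, gave a share of 0.117%, a median of 12.3 FPKM and a log2 ratio of 2.08 for Tyrp1 over Dct, and raised Mlana to 83.0 FPKM, with the order of the 9 members as before. Of 111 genes on the lists, 90 were measured and 85 reached 1 FPKM, where 93.2% of named genes did so. At 5 FPKM the count was 61. No share over all named genes was taken at exactly that level, but 40.1% of named genes lay below Krt10 at 4.98 FPKM. Leaving out a sample and a paired fit were not run, because the table has 1 column of values. No paired analysis was possible because the samples form 1 group.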
